A study of Mus musculus with 12 samples.

Results

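The contacts of the Hoxb5 promoter were measured by CaptureC, a method in which crosslinked chromatin is cut and religated and the ligation partners of a captured fragment, the bait, are counted. The members were all interactions whose bait started at the position given for Hoxb5, which made 31 of the 842 interactions in the table. At 8 of the 31 the other end overlapped a joint RING1B and PCGF2 binding site, called a PCGF2 site, and at 23 it did not. The bait overlapped such a site too. The 23 other sites were defined only by the lack of joint binding, so they can include sites with RING1B alone.

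The libraries came from mouse embryonic stem cells (ESCs) of strain E14 in 4 groups of 3 replicates, and each group is given as 1 pooled column. PRC1CPM cells (clone 41, a single clone) carry Ring1aI50A/D53K, Ring1b alleles that Cre switches from wild type to I53A/D56K, and ERT2-Cre at Rosa26. They were either left untreated or kept for 72 h in 4-hydroxytamoxifen (OHT) at 800 nM, after which PRC1 is made without catalytic activity. The mutated Ring1a is present in both of these groups. PRC1DEG cells carry Tir1, Ring1a-/- and Ring1bAID, a RING1B fused to a degron, and received 0.5 mM auxin for 6 h. Control cells carry Tir1 alone, with intact PRC1, and received the same auxin. No PRC1DEG cells without auxin were part of the 4 groups, so the effect of RING1B degradation and that of the Ring1a-/- and degron alleles cannot be told apart. The groups also held no OHT-treated cells without the Ring1b switch. The effect of lost catalysis and that of OHT with active Cre thus cannot be told apart either.

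Hox genes encode homeodomain transcription factors that give cells their position along the body axis, and in ESCs the HoxB cluster is held silent under Polycomb chromatin. PRC1 is an E3 ligase that places ubiquitin on histone H2A through RING1A or RING1B. Its canonical form holds PCGF2 together with a CBX protein that reads the histone mark made by PRC2 and a PHC protein that can polymerize, and it is known for bringing distant Polycomb target sites together.

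The Hoxb5 bait was a DpnII fragment of 219 bp at chr11:96303362-96303580 (GRCm38). It began 150 bp before the Hoxb5 transcription start site (TSS) on the plus strand and ended in the 5' UTR of the gene. All 31 contacts lay on chromosome 11, with 2 on the Hoxb13 side and 29 on the side of Hoxb1 and Skap1. The sequences below are the central 200 bp of contacted fragments whose counts are described further on, all on the plus strand of GRCm38. They come from the fragment 4.31 kb before the Hoxb13 TSS (chr11:96189570-96189769), the PCGF2 site near Skap1 (chr11:96463125-96463324), and its nearest single-fragment neighbour without a PCGF2 site (chr11:96456151-96456350). Capitals mark CG dinucleotides, which are dense in the CpG islands that Polycomb complexes occupy.
before Hoxb13: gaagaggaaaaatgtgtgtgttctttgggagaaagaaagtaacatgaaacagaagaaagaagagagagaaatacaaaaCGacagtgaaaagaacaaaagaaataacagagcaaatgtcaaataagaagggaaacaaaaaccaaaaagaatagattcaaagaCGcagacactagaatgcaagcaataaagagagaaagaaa
near Skap1: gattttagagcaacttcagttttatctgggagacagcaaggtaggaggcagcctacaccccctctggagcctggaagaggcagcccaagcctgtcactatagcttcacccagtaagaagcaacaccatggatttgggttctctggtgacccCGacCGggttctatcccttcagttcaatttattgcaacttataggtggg
other site near Skap1: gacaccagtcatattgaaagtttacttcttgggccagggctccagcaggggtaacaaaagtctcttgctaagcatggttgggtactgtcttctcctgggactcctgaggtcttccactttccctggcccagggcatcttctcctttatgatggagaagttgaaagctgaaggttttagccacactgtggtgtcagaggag
The windows held 2 CG dinucleotides near Skap1, 2 before Hoxb13 and 0 at the other site. Over the whole fragment near Skap1 the ratio of observed to expected CG was 0.171. The median of this ratio was 0.225 over the 8 PCGF2 sites of Hoxb5, 0.281 over its 23 other sites, 0.446 over all 157 PCGF2-site ends in the table and 0.225 over the remaining 685. The median for the PCGF2 sites of Hoxb5 was thus below that of PCGF2-site ends in the whole table and close to that of the ends without such a site.

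The deposited counts are weighted reads scaled to the reads of all captured promoters and to how many promoters were captured. Their steps gave back whole weighted reads, and 3925 of these fell on the 31 contacts in untreated PRC1CPM cells, 2911 with OHT, 3674 in Control and 2813 in PRC1DEG cells. Levels below are normalized weighted reads per fragment times 1000, and changes are log2 ratios of the mean normalized count, treated over reference, after a pseudocount of 0.000350 was added. The 95% Wilson intervals of changes cover counting error in the pooled libraries alone. A contact is said to fall or rise where its interval excludes 0. This is a statement on these libraries, since no spread between replicates and no p-value can be had from 1 column per group.

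Contacts of the Hoxb5 promoter with PCGF2 sites were weaker in both systems. Interactions entered the table by an interaction score of at least 5 in any library. At their summit fragments the 8 reached it in untreated cells (6 of 8) or Control cells (2 of 8), and in neither treated group. Such a choice favours decreases in the counts, medians and shares of these 8, and its part in them was not tested. After OHT, 5 of the 8 fell and none rose, where 14.7% of all 842 interactions fell and 0% rose. In PRC1DEG cells 6 of the 8 fell and none rose, where 13.1% of all interactions fell and 3.21% rose. The median log2 change over the 8 was -0.63 with OHT and -1.67 in PRC1DEG cells, beside -0.27 and -0.0048 over all 842 interactions. A decrease of at least 2-fold was seen at 2 of the 8 after OHT (12.4% of all interactions) and at 6 in PRC1DEG cells (14.1%). One of those 2 had 1 read before and 0 after OHT, so no fold can be given for it, and the same site is 1 of the 6 in PRC1DEG cells, from 4 reads in Control and 0 there. Raising all values under the floor of 3 weighted reads to 3 gave medians of -0.54 and -1.45. Levels added over the 8 after OHT came to 62.3% of those in untreated cells, and levels in PRC1DEG cells to 37.5% of those in Control. Normalized counts summed over all their fragments gave 60.9% and 29.8%. No interval is given for the added levels, in which single-fragment ends such as the Hoxb3 intron weigh more than their reads do.

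At the 23 other sites, 0 fell and 0 rose after OHT. In PRC1DEG cells 1 fell and 1 rose, and no other site was at least 2-fold lower in either system. Their median log2 change was -0.08 with OHT and 0.22 in PRC1DEG cells, beside -0.17 and 0.09 over the 284 other sites of all 24 named baits. Centred on those, the medians were 0.0825 and 0.13, so the sign after OHT depended on the scaling. Some of the 23 reached the score for entry at their summit in a treated group alone, and some in a reference group alone. The first choice favours increases and the second decreases. The part of either in the counts and medians of other sites, here and below, was not tested.

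**Figure D1:**
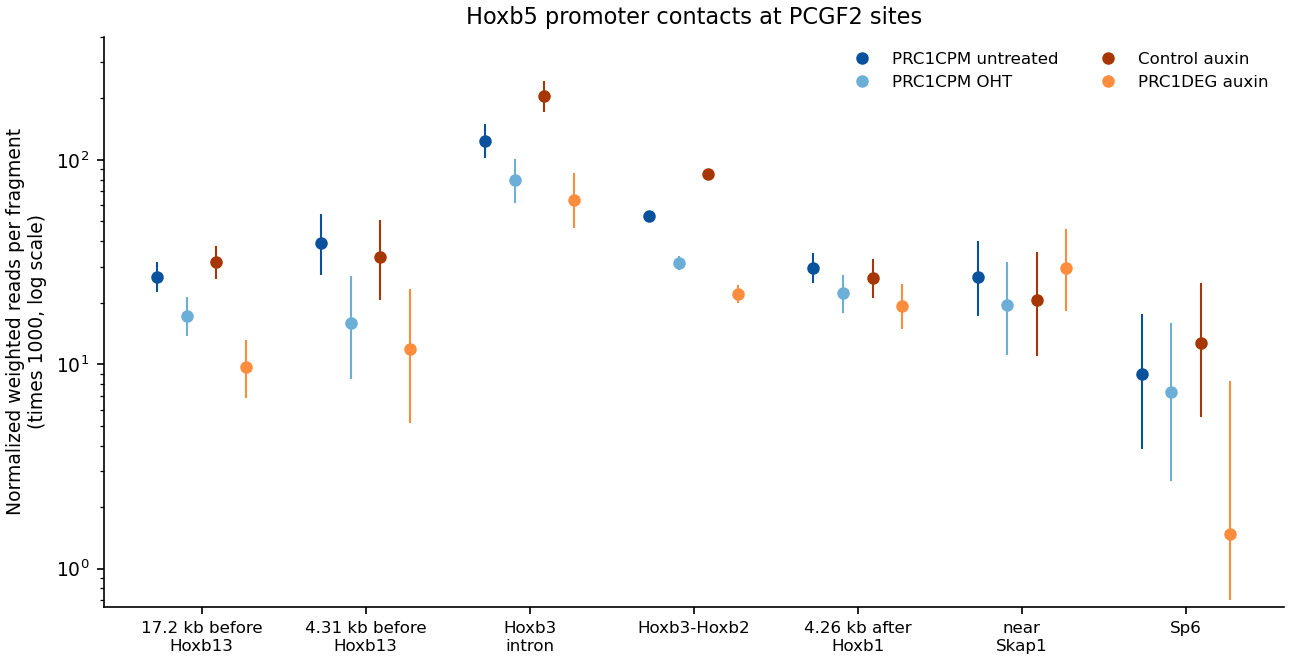
Normalized weighted reads per fragment (times 1000, log axis) at 7 of the 8 PCGF2 sites contacted by the Hoxb5 promoter, in order along the chromosome, with 1 point per group pooled from 3 replicates. Lines are exact 95% Poisson intervals, which cover counting error only, and a line that reaches the bottom axis goes on below it. The 3 highest levels in Control cells stood before Hoxb13, in the Hoxb3 intron and over Hoxb3 and Hoxb2, and were 33.4, 205 and 85.2, with 11.9, 63.9 and 22.1 in PRC1DEG cells.

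Inside the HoxB cluster lay 2 of the PCGF2 sites. Hoxb3 and Hoxb2 are neighbours of Hoxb5 on its 3' side and are likewise Polycomb targets in ESCs. The contact that spanned the Hoxb3 and Hoxb2 promoters (chr11:96342889-96358475, 25 fragments, 47.2 kb from the bait) held 1190 weighted reads in untreated PRC1CPM cells, 641 with OHT, 1340 in Control and 372 in PRC1DEG cells. Both reference groups were thus well above both treated groups. It fell by 0.76 on the log2 scale after OHT (interval -0.90 to -0.63) and changed by -1.93 in PRC1DEG cells (-2.11 to -1.78). Its summit fragment alone, which does not depend on how fragments were joined, had 105, 50, 81 and 32 reads in the same order of groups. The log2 change of the summit was -0.94 (-1.43 to -0.46) after OHT and -1.43 (-2.02 to -0.85) in PRC1DEG cells. This end also contains the Hoxb3 and Hoxb2 baits, so its ligation products can be captured from either side, and the part of this in its level was not tested.

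The contact in an intron of Hoxb3 (chr11:96331433-96332354, 28.4 kb away) was the nearest to the bait and had the highest level per fragment. It held 111 weighted reads in untreated cells, 65 with OHT, 129 in Control and 43 in PRC1DEG cells, which are levels of 124, 79.3, 205 and 63.9. It fell by 0.64 after OHT (-1.08 to -0.20) and changed by -1.68 in PRC1DEG cells (-2.18 to -1.19), in log2 units.

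Beyond Hoxb1, the 3' gene of the cluster, a contact 4.26 kb past its TSS (chr11:96370014-96372159, 5 fragments, intergenic) held 133, 91, 83 and 65 weighted reads in untreated, OHT-treated, Control and PRC1DEG cells. Its log2 change was -0.41 with OHT (-0.80 to -0.04) and -0.44 in PRC1DEG cells (-0.92 to 0.02). The decrease after OHT was beyond counting error and that in PRC1DEG cells was not. This was the only PCGF2 site within 150 kb of the bait at which PRC1DEG cells kept over 50% of the Control level, with 73.2% kept, against 25.9% over Hoxb3 and Hoxb2.

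On the other side of the cluster, 2 intergenic contacts lay before Hoxb13, the 5' gene that is set apart from the rest of HoxB. The farther one, 17.2 kb before the Hoxb13 TSS (chr11:96172975-96177162, 6 fragments, 128 kb from the bait), had 144 weighted reads in untreated cells, 85 with OHT, 119 in Control and 39 in PRC1DEG cells. It fell by 0.62 after OHT (-1.02 to -0.25) and changed by -1.67 in PRC1DEG cells (-2.23 to -1.19). The nearer one, 4.31 kb before the TSS (chr11:96189333-96190006), whose centre is printed above, had 35, 13, 21 and 8 reads in the same order. It fell by 1.28 after OHT (-2.20 to -0.40) and changed by -1.46 in PRC1DEG cells (-2.63 to -0.35). Both contacts were lower in both treated groups, and the intervals of the nearer one were the wider for its few reads.

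Near Skap1, which codes for an adaptor protein of T cells and lies next to the cluster, the PCGF2 site did not follow this pattern in PRC1DEG cells. The fragment (chr11:96462923-96463525, 160 kb from the bait) lies 1.07 kb before the Skap1 TSS, in an intron of the noncoding gene Gm11529. It held 24 weighted reads in untreated cells, 16 with OHT, 13 in Control and 20 in PRC1DEG cells. Its log2 change was -0.45 with OHT (-1.35 to 0.44) and 0.52 in PRC1DEG cells (-0.46 to 1.51), so neither change was beyond counting error. The intervals leave room for a 2-fold decrease after OHT but not for one in PRC1DEG cells. Its level per fragment stood at 26.8 in untreated cells and 20.7 in Control, and the single-fragment contact 7.70 kb before Skap1 (chr11:96455607-96456893) at 23.4 and 36.6. That neighbour held 21, 19, 23 and 37 reads, with log2 changes of -0.02 (-0.90 to 0.87) and 0.58 (-0.15 to 1.33). Its summit scores were 4.34, 3.95, 2.66 and 8.19 in the same order, so it reached the score for entry only in PRC1DEG cells. Such a choice favours an increase there, and its part in this change was not tested. The summit score of the PCGF2 site near Skap1 was 5.27 in untreated cells, 3.29 with OHT, 0.734 in Control and 3.18 in PRC1DEG cells. It thus reached the score for entry into the table only in untreated cells. In Control cells, the reference for PRC1DEG cells, it was not a called contact, and only 2 of the 8 PCGF2 sites were.

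The PCGF2 site at Sp6 had few reads. A fragment in an intron of Sp6 (chr11:97019450-97020397), a gene for a zinc finger transcription factor 716 kb from the bait, held 8 weighted reads in untreated cells, 6 with OHT, 8 in Control and 1 in PRC1DEG cells. The log2 change was -0.27 with OHT (-1.75 to 1.18) and -2.83 in PRC1DEG cells (-5.72 to -0.48), where the call rests on that 1 read.

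**Figure D2:**
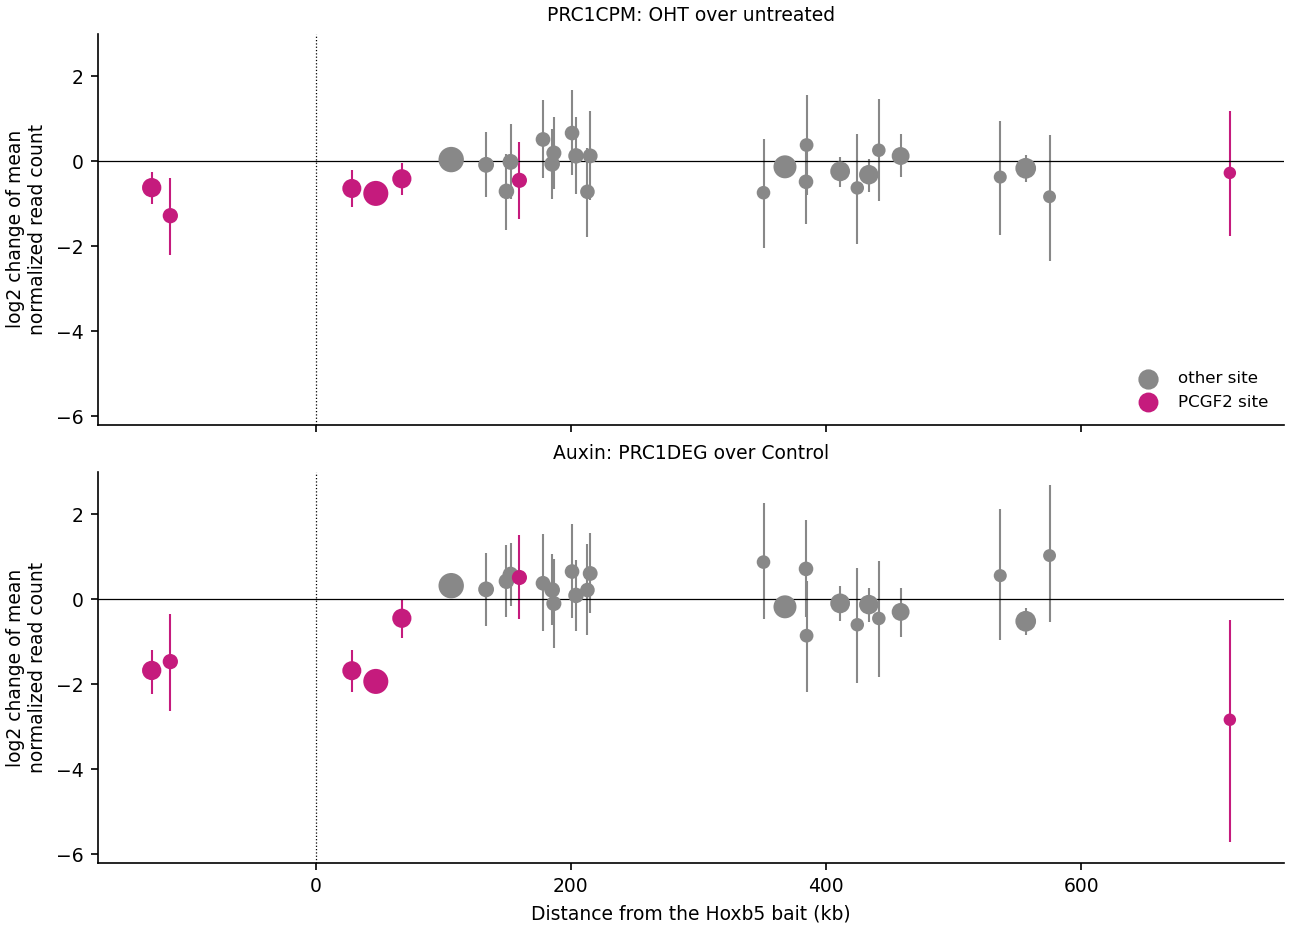
Log2 change of the mean normalized read count against signed distance from the Hoxb5 bait in kb, for OHT over untreated PRC1CPM cells (upper) and PRC1DEG over Control cells (lower). Points are contacts, larger with more weighted reads over the 4 groups, lines are 95% Wilson intervals, pink marks PCGF2 sites and grey other sites, and 1 far contact is left out. Below 0 in the lower panel stand 6 of the 7 PCGF2 sites shown, with the site near Skap1 at 0.52 among grey points.

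In level per fragment, untreated cells ranked 7 of the PCGF2 sites as the Hoxb3 intron (124, exact Poisson interval 102 to 149), Hoxb3 and Hoxb2 (53.1, 50.1 to 56.2), 4.31 kb before Hoxb13 (39.1, 27.2 to 54.3), past Hoxb1 (29.7, 24.9 to 35.2), then 17.2 kb before Hoxb13 and near Skap1 (26.8 for both), and Sp6 (8.93, 3.85 to 17.6). The Hoxb3 intron was apart from its neighbour in this order beyond counting error, while from Hoxb3 and Hoxb2 down to the sites at 26.8 each interval overlapped the next. Of those at 26.8, the site near Skap1 (17.2 to 39.9) overlapped Sp6 and the one before Hoxb13 (22.6 to 31.5) did not. In PRC1DEG cells the Hoxb3 intron was still first (63.9, 46.2 to 86.1), and the site near Skap1 was second with 29.7 (18.2 to 45.9), in an interval that held the value over Hoxb3 and Hoxb2 (22.1).

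To describe these losses without the authors' scaling between libraries, the share of the reads of this bait that lay at PCGF2 sites was computed. In untreated PRC1CPM cells 1646 of the 3925 weighted reads on the 31 contacts were at PCGF2 sites, 41.9% (Wilson interval 40.4 to 43.5%). After OHT the share was 31.5% (29.8 to 33.2%). In Control cells it was 46.7% (45.1 to 48.3%) and in PRC1DEG cells 19.5% (18.1 to 20.99%). The intervals of treated and reference groups did not overlap in either system. Without the contact over Hoxb3 and Hoxb2, the share was 16.7% in untreated cells, 12.2% with OHT, 16.2% in Control and 7.21% in PRC1DEG cells. A share falls when PCGF2-site reads fall or when reads elsewhere rise, and it does not tell these apart.

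**Figure D3:**
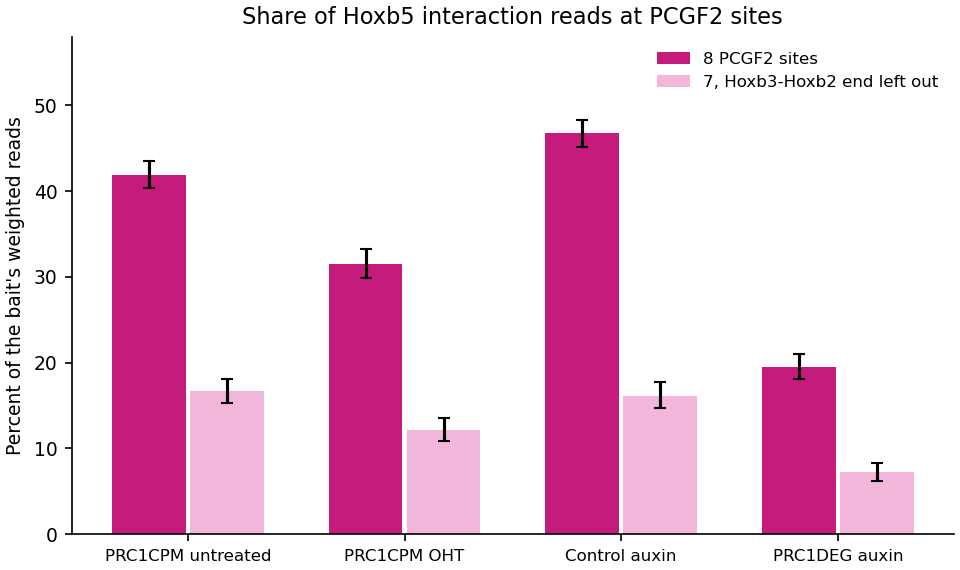
Percent of the weighted reads on Hoxb5 contacts that lay at PCGF2 sites in each group, for all 8 sites and for 7 with the end over Hoxb3 and Hoxb2 left out of both parts of the ratio. Bars start at 0 and lines are 95% Wilson intervals for counting error. The share was 41.9% and 31.5% in untreated and OHT-treated PRC1CPM cells, and 46.7% and 19.5% in Control and PRC1DEG cells.

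The 23 other sites filled the region from 106 to 575 kb on the Hoxb1 side, with 4 between Hoxb1 and Skap1, 16 in Skap1 and 3 farther on around Copz2, which codes for a coatomer subunit. The broadest contact (chr11:96398807-96420712, 59 fragments, intergenic, 33.1 kb past the Hoxb1 TSS) held 985 weighted reads in untreated cells, 926 with OHT, 926 in Control and 1243 in PRC1DEG cells. It was level after OHT with a log2 change of 0.04 (-0.09 to 0.17) and rose by 0.32 in PRC1DEG cells (0.20 to 0.45). It was the only one of the 31 contacts to rise. Its summit score was 2.56 in untreated and 4.17 in Control cells, beside 7.44 with OHT and 9.99 in PRC1DEG cells. At its summit it thus reached the score for entry into the table only in the treated groups. Such a choice favours increases, and its part in this rise was not tested. For the summit fragment by itself, 38 Control reads stood against 53 from PRC1DEG cells, and the log2 change was 0.38 (-0.21 to 0.98).

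The single-fragment contacts in the same interval were all higher in PRC1DEG cells, though none beyond counting error. Besides the site 7.70 kb before Skap1, they were 26.9 kb before it (29, 25, 19 and 24 reads in the 4 groups, log2 change in PRC1DEG cells 0.24, -0.62 to 1.09) and 10.9 kb before it (27, 15, 18 and 26 reads, 0.43, -0.42 to 1.29). After OHT their log2 changes were -0.08 and -0.71. The 4 contacts between Hoxb1 and Skap1 together held 126% of the Control count in PRC1DEG cells and 101% of the untreated count after OHT. These 4 include the broad contact above and the site 7.70 kb before Skap1. At its summit the latter reached the score for entry only in PRC1DEG cells, a choice that favours an increase there. The part of either choice in these directions and percentages was not tested.

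In the Skap1 gene, 8 of the 16 contacts were lower and 8 higher in each system, with a median log2 change of 0.03 with OHT and 0.00 in PRC1DEG cells. The broadest (chr11:96660388-96682242, 50 fragments) held 477, 397, 381 and 360 reads and changed by -0.13 (-0.33 to 0.06) and -0.17 (-0.39 to 0.03). Next by reads came the contact at chr11:96708706-96720359, with 152, 117, 97 and 97 reads and changes of -0.24 and -0.09. The one at chr11:96731914-96742109 had 128, 93, 99 and 97 reads and changes of -0.32 and -0.12. Those at chr11:96758672-96765220 (62, 62, 52 and 45 reads) and chr11:96487948-96489799 (24, 21, 20 and 25 reads) changed by 0.12 and -0.06 after OHT and by -0.29 and 0.22 in PRC1DEG cells. All intervals of these 5 contacts held 0 in both systems. Farther on, the contact over Copz2 (chr11:96854393-96865544, 20 fragments) had 186 reads in untreated cells, 151 with OHT, 186 in Control and 138 in PRC1DEG cells. It was level within counting error after OHT (-0.17, -0.48 to 0.14) and fell by 0.51 in PRC1DEG cells (-0.85 to -0.21), the only other site to do so. The 13 other sites with the fewest reads had between 4 and 24 reads in any group and log2 changes from -0.84 to 0.66 after OHT and from -0.85 to 1.03 in PRC1DEG cells.

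Interaction scores were read beside the counts. A CHiCAGO score weighs the reads on a fragment against those expected at its distance, and 5 is the usual threshold for a call. In untreated PRC1CPM cells 6 of the 8 PCGF2 sites had a summit score of at least 5, where 58.8% of all 842 interactions did. After OHT it was 0 of 8 (33.6% of all), though 4 of 8 had a score of at least 3. In Control cells 2 of 8 passed (20.1% of all) and in PRC1DEG cells 0 of 8 (17.9%). The highest score among the PCGF2 sites in untreated cells was 8.67 over Hoxb3 and Hoxb2, with 2.35 after OHT, and the highest among all 31 contacts was 13.5 over Copz2, an other site. The Hoxb3 intron had 6.21 in Control and 2.24 in PRC1DEG cells, but 2.75 in untreated cells and 2.34 with OHT. Over Hoxb3 and Hoxb2 the score was 4.73 in Control and 1.97 in PRC1DEG cells, both below 5. At the 23 other sites, 12 passed in untreated cells, 10 with OHT, 2 in Control and 8 in PRC1DEG cells. An interaction entered the table when any library reached this score, so a pass in at least 1 group was part of how contacts were chosen, and scores of the PRC1CPM and auxin experiments are not on a shared scale.

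**Figure D4:**
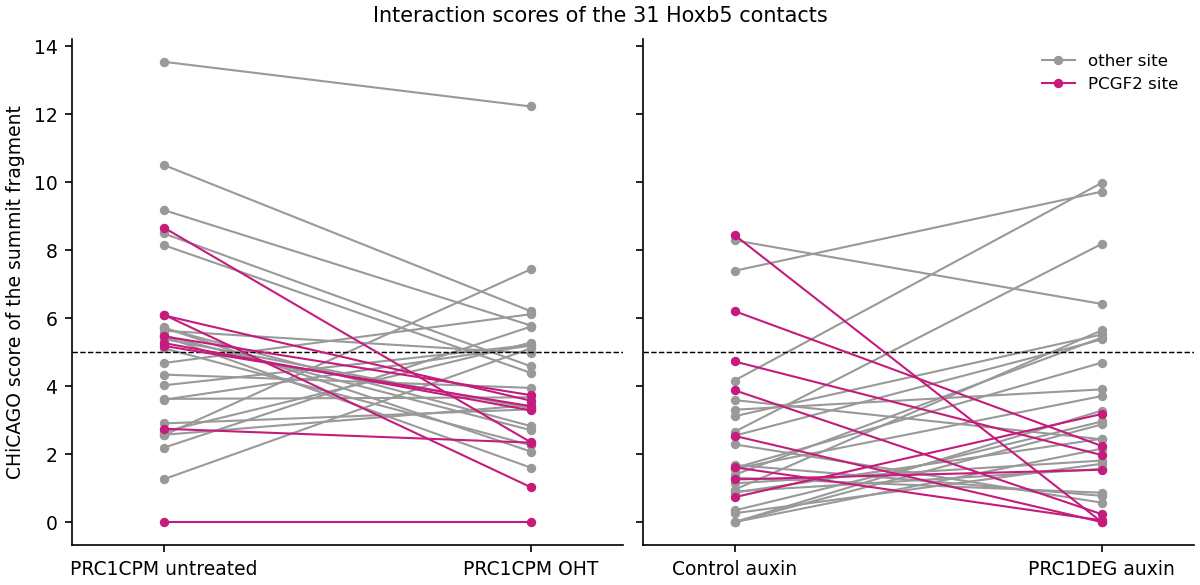
CHiCAGO score of the summit fragment for the 31 Hoxb5 contacts, each line joining 1 contact in the reference group (left) and treated group (right) of a system, with PCGF2 sites in pink and other sites in grey. The dashed line is the threshold of 5. Above it stand 6 pink points in untreated PRC1CPM cells, 2 in Control cells and 0 in either treated group.

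Genes of the HoxB cluster, its neighbours and other Polycomb targets of chromosome 11 were set against the 31 ends. Of the other 9 HoxB genes, Hoxb2 and Hoxb3 had a TSS inside an end, and Hoxb1 and Hoxb13 had one within 5 kb of a PCGF2-site end. Hoxb4, Hoxb6, Hoxb7, Hoxb8 and Hoxb9 had none within 5 kb, and the nearest of them was Hoxb4 at 13.2 kb. Of 8 neighbours of the cluster with an annotated protein-coding TSS, Skap1 and Copz2 had an end within 5 kb, and Copz2 only one at an other site. Of 31 further Polycomb target or developmental genes of the chromosome, 1 did, which was Sp6.

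The baits of Hoxb1, Hoxb2 and Hoxb3 gave a view of some of the same places. Of the 8 PCGF2-site ends of Hoxb5, 4 overlapped an end of at least 1 of these baits, among them both sites before Hoxb13 and Sp6. The ends near Skap1 and in the Hoxb3 intron did not. Over the region 17.2 kb before Hoxb13 the Hoxb3 bait had a wider end of 28 fragments with 1177 reads in untreated cells, 641 with OHT, 1007 in Control and 332 in PRC1DEG cells. Its log2 changes were -0.74 (-0.89 to -0.61) and -1.68 (-1.88 to -1.52), beside -0.62 and -1.67 from Hoxb5. The end of the Hoxb1 bait there (26 fragments) changed by -0.59 (-0.78 to -0.41) and -0.97 (-1.21 to -0.77), and in PRC1DEG cells its interval did not overlap that of Hoxb3. An end of the Hoxb2 bait that spanned both sites before Hoxb13 (69 fragments) changed by -0.80 (-0.91 to -0.71) and -1.57 (-1.75 to -1.46). Over the nearer of these sites the changes were -0.80 and -1.77 from Hoxb3 and -0.79 and -1.16 from Hoxb1, beside -1.28 and -1.46 from Hoxb5. For the Sp6 fragment itself, the Hoxb2 bait had 12, 10, 11 and 9 reads, with changes of -0.13 (-1.31 to 1.04) and -0.38 (-1.62 to 0.85). A wider end of the Hoxb3 bait at Sp6 (19 fragments) had 124, 121, 130 and 82 reads, and its change was 0.09 (-0.27 to 0.45) after OHT and -0.73 (-1.16 to -0.37) in PRC1DEG cells, the latter beyond counting error.

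Seen from the other direction, ends of the Hoxb3 and Hoxb2 baits covered the Hoxb5 bait. That of Hoxb3 (75 fragments) fell by 0.73 after OHT (-0.79 to -0.68) and changed by -1.42 in PRC1DEG cells (-1.49 to -1.37). That of Hoxb2 (86 fragments) fell by 0.75 (-0.81 to -0.69) and changed by -1.31 (-1.40 to -1.24). The Hoxb1 bait had a single fragment just past the Hoxb5 bait (chr11:96303770-96304264) with 154 reads in untreated cells, 84 with OHT, 111 in Control and 94 in PRC1DEG cells. That contact fell by 0.74 after OHT (-1.13 to -0.36), and its change in PRC1DEG cells was -0.34 (-0.73 to 0.06). These views share libraries and partly the same ligation products with those from Hoxb5 and are not independent of them.

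Among the 16 named baits with at least 3 PCGF2-site contacts, Hoxb5 had the third smallest median decrease after OHT and the sixth smallest in PRC1DEG cells. The baits with the nearest pair of medians were Hoxb3 (-0.74 and -1.77 over 11 contacts, Euclidean distance 0.143), Hoxb2 (-0.76 and -1.44 over 8, distance 0.267) and Fli1 (-1.02 and -1.60 over 6, distance 0.393). Hoxb1, which shares the cluster, had -0.61 and -0.86 over 12 contacts. Medians over so few contacts carry no error from replicates, and nothing in them sets these baits apart by a test. The median difference between the systems over the 8 contacts of Hoxb5, PRC1DEG change minus OHT change, was -1.04. The change in PRC1DEG cells was the lower at 7 of 8, with the site near Skap1 the exception. It was also the lower at 111 of the 130 PCGF2 sites of named baits (Hoxb3 11 of 11, Hoxb2 8 of 8) and at 311 of all 842 interactions. Over Hoxb5 contacts with at least 10 reads in both reference groups the median difference was -0.61. Of the 5 PCGF2 sites with at least 10 reads in all 4 groups, the interval of this difference lay below 0 at 3 and above 0 at none, where 6.65% of the 511 interactions with as many reads lay below and 5.87% above. Of the 16 other sites with as many reads, 0 lay below and 1 above. Entry into the table through a single group, as for the Hoxb3 intron through Control cells, can shift such a difference. The part of this was not tested. The systems differ in cell line, treatment, time and experiment, and these cannot be told apart.

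**Figure D5:**
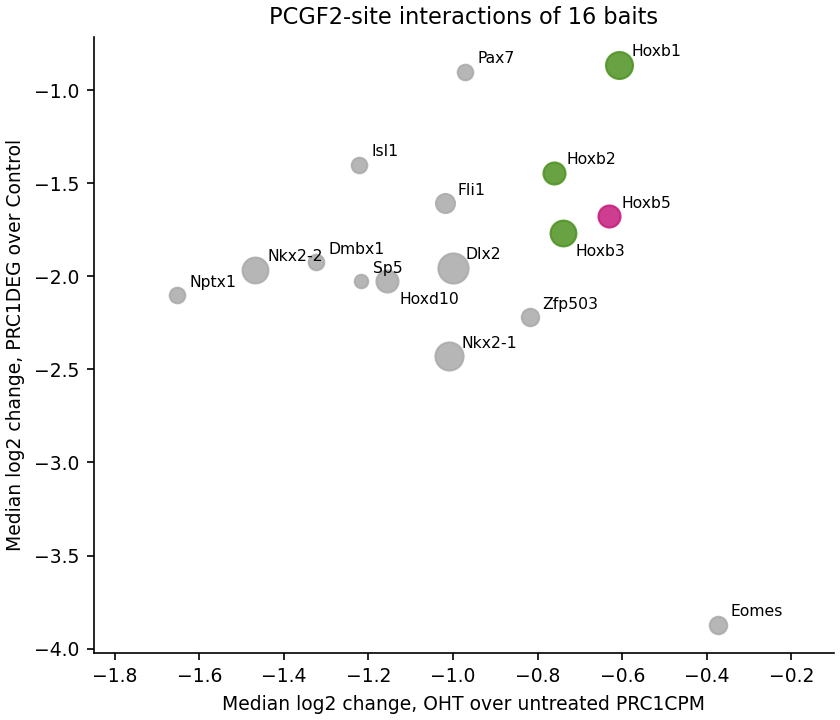
Median log2 change at PCGF2-site contacts after OHT (horizontal axis) and in PRC1DEG cells (vertical axis) for the 16 named baits with at least 3 such contacts. Point area grows with the number of contacts, pink is Hoxb5, green are the other HoxB baits and grey the rest. Hoxb5 at -0.63 and -1.67 stands nearest to Hoxb3 at -0.74 and -1.77, and Eomes at -0.37 and -3.87 stands farthest.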

How the data were processed

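CaptureC was carried out in 12 samples, 4 groups of 3 replicates taken from the sample labels. The authors aligned and filtered paired-end reads with HiCUP and Bowtie2 (mm10) and obtained weighted read counts and scores for merged replicates with CHiCAGO. Fragments that reached a score of 5 in 1 or more samples were pooled by them, and those close together were joined. The signal values deposited are weighted counts, summed over the fragments of an interaction and normalized to reads on captured promoters and to the number of promoters. The score values deposited are CHiCAGO scores of the summit fragment and summed over fragments. Other deposited columns give the signal of the summit fragment alone, fragment numbers and overlap with PCGF2 sites.

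Values were divided by the number of fragments. The step between low values gave the value of 1 weighted read, and 100% of the values in each group came out whole within a tolerance of 0.1. In the auxin libraries 2 step sizes were found, and Hoxb5 shared its step with 18 named baits, itself included. A weighted read may stand for more than 1 sequenced read, and reads had no molecular identifiers, so the 95% intervals (Wilson for ratios and shares, exact Poisson for levels) and the floor of 3 weighted reads cover counting error only. Differences between systems used a normal interval of the log2 ratio where all groups had at least 10 reads. Steps and intervals were tested on simulated Poisson counts with the same steps. Such counts hold no spread between replicates and no weighted reads made of several sequenced reads, so neither was tested.

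The 24 bait fragments and their oligonucleotides matched GRCm38 (RefSeq), with genes from GENCODE M21 basic. Of the 8 PCGF2-site ends 7 were named, the remaining one and the sequence of the bait are not reported here though that end stays in counts, medians and shares, and of the other ends the 10 with the most weighted reads over the 4 groups. The members and lists were chosen with earlier results of these data known. Python 3.11.15 with numpy 2.4.6, pandas 2.3.3 and scipy 1.17.1 was used. Values per replicate were not analysed here.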

Additional observations from a re-analysis of the deposited data

Results flagged for a closer look

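At 4 of the 21 contacts of the Hoxb5 promoter with at least 10 weighted reads in every group (3 below 0, where 6.65% of all 511 such interactions were, and 1 above, where 5.87% were), the change in PRC1DEG cells and the change after OHT differed by more than counting error. The difference, PRC1DEG change minus OHT change in log2 units, was -1.05 (95% interval -1.72 to -0.43) for the contact 17.2 kb before Hoxb13, -1.04 (-1.70 to -0.37) for the Hoxb3 intron and -1.17 (-1.40 to -0.97) over Hoxb3 and Hoxb2. It was 0.28 (0.11 to 0.47) for the broad contact 33.1 kb past Hoxb1, which is no PCGF2 site. At its summit this broad contact reached the score for entry into the table only in the treated groups. The Hoxb3 intron reached it only in Control cells, with 6.21 beside 2.75 in untreated, 2.34 in OHT-treated and 2.24 in PRC1DEG cells. Such a choice favours a decrease in PRC1DEG cells and so a difference below 0. The contacts 17.2 kb before Hoxb13 and over Hoxb3 and Hoxb2 reached it only in untreated cells. The part of these choices in the 4 differences was not tested. The contact past Hoxb1 at a PCGF2 site, with -0.03 (-0.64 to 0.57), and the one near Skap1, with 0.97 (-0.38 to 2.34), had intervals that held 0. No spread between replicates enters these intervals, and cell line, treatment, time and experiment differ between the systems.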

How the results depend on the processing

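No paired analysis was possible because each group is given as 1 column pooled from its 3 replicates, and for the same reason leaving out a replicate was not run. Of 69 alternative values, 46 stayed within the counting error of the value reported (for score calls, within 1.5 times), 23 moved beyond it and 0 changed sign beyond counting error. The cause of these shifts was not tested.

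The median log2 change of the 8 PCGF2-site contacts after OHT was -0.63 and became -0.47 with a pseudocount 10 times larger, -0.46 when centred on the other sites of all named baits, and -0.81 as a mean. In PRC1DEG cells it was -1.67 and became -1.45 both with that pseudocount and with values below 3 weighted reads set to 3, and -1.90 when centred on the other sites of Hoxb5 itself, a setting added after the data were seen. The difference between the systems was -1.04 and became -0.82 with values set to 3 reads, -1.30 and -1.35 with the 2 centrings, -0.61 for contacts with at least 10 reference reads and -0.62 without the 2 ends in the HoxB cluster. The median of the other sites moved from -0.08 to 0.0825 after OHT and from 0.22 to 0.13 in PRC1DEG cells with the centring on all named baits, so its sign after OHT is not settled.

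Score calls at the 8 sites in untreated, OHT-treated, Control and PRC1DEG cells were 6, 0, 2 and 0 at a summit score of 5. At 3 they were 6, 4, 4 and 1, and at 10 they were 0 in every group. With the mean score over fragments, untreated cells had 3. The level kept in PRC1DEG cells was 37.5% and became 29.8% with counts summed over fragments, 29.6% for the 2 ends in the HoxB cluster, 55.0% without them and 43.5% without the Hoxb3 intron, while the 62.3% after OHT stayed between 60.9 and 62.5%. The values of the site near Skap1 kept their direction in all alternatives run and stayed within counting error of 0.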
